A study of Homo sapiens with 9 samples.

Results

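The G1 cyclins, their kinases and the inhibitors of these kinases were examined in ES-2 cells depleted of IGF2BP1 or SRF. The set holds 10 of the 58174 genes measured and was picked by gene symbol. It comprises the D-type cyclins CCND1, CCND2 and CCND3, the E-type cyclins CCNE1 and CCNE2, the kinases CDK4 and CDK6, and the inhibitors CDKN1A (p21), CDKN1B (p27) and CDKN2A. At least 1 read was counted for 9 of them. No read was counted for CCND2 in any library.

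D-type cyclins are made in response to growth signals and activate CDK4 and CDK6, which phosphorylate the retinoblastoma protein (RB). RB then releases E2F transcription factors, which drive CCNE1, CCNE2 and the genes of DNA replication. Cyclin E bound to CDK2 completes the phosphorylation of RB at the entry into S phase. CDKN1A and CDKN1B bind cyclin-CDK complexes, CDKN1A being a classical target of p53. The CDKN2A locus encodes p16INK4A, an inhibitor of CDK4 and CDK6, and from another reading frame ARF, which shields p53 from MDM2. IGF2BP1 is an mRNA-binding protein that can protect transcripts from miRNA-directed decay. SRF is a transcription factor that binds the CArG box of immediate early and cytoskeletal genes.

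The cell line ES-2 was established from an ovarian cancer. The authors cite a report of mutated p53 in this line. Cells received a control siRNA (siC), an siRNA pool against IGF2BP1 (siIGF2BP1) or one against SRF (siSRF), and total RNA was taken after 72 h and depleted of ribosomal RNA. Each condition has 3 libraries, and the cells carry no other named modification. Expression is given as FPKM, fragments counted per length of gene and depth of library. The length is the one deposited for each gene, which need not be that of the expressed transcripts. Levels of different genes, and shares of their sums, are therefore compared only roughly.

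The libraries held between 6421764 and 9416175 reads on genes. IGF2BP1 fell to 32.2% of siC in siIGF2BP1 (12.8, 13.5 and 12.1 against 4.18, 4.14 and 4.02 FPKM; log2 difference -1.61, limma adjusted p = 0.000141). SRF fell to 10.1% of siC in siSRF (13.6, 14.1 and 16 against 1.63, 1.36 and 1.42 FPKM; log2 difference -3.22, limma adjusted p = 6.07e-05). SRF also fell in siIGF2BP1, to 5.8, 5.42 and 6.8 FPKM (log2 difference -1.26, limma adjusted p = 0.00111), so that SRF was low under both siRNA pools. IGF2BP1 stood at 13.7, 14.6 and 14.4 FPKM in siSRF and did not pass against siC (limma adjusted p = 0.119). The leukocyte and hepatocyte markers PTPRC, CD3E, ALB and APOA1 were at 0 in each library, and the leukocyte marker LYZ did not exceed 0.334 FPKM. VIM was at 837 to 1065 FPKM. Of the 6 epithelial markers, KRT7 was at 97.5 to 158 FPKM, KRT18 at 34.1 to 84.7 FPKM and KRT8 at 8.54 to 13.8 FPKM, whereas KRT19, EPCAM and CDH1 did not exceed 0.259 FPKM, and the Muellerian marker PAX8 did not exceed 0.262 FPKM. CDH5, listed as an endothelial marker, lay between 7.53 and 16.1 FPKM while PECAM1 and VWF did not exceed 0.387 FPKM.

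The let-7 seed is shown because IGF2BP1 is known to act on miRNA-directed decay. The CDKN1A site is shown because it was the only match among the 9 members reported. In RefSeq (GRCh38.p14), 9 mature miRNAs of the let-7 family share the seed GAGGUAG, bases 2 to 8, in capitals here. Below the miRNA stands the stretch of the CDKN1A 3′UTR that holds the 7 bases CTACCTC complementary to the seed, again in capitals.
hsa-let-7a-5p: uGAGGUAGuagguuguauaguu
CDKN1A 3′UTR: agggcaccctagttCTACCTCag
The CDKN1A stretch lies at chr6:36686729-36686751 on the plus strand (GRCh38), in the last of 3 exons, and the match starts at base 943 of a 3′UTR of 1532 bases. The mRNA strand of the main transcripts was searched, and CCNE2 is not reported here. Of the 9 members reported, the 8 other than CDKN1A held no match to these 7 bases. Shorter or shifted matches and other transcripts were not searched. For CDK6, whose 3′UTR has 10219 bases, 43.6% of the 273 human 3′UTRs within 20% of that length hold a match. For a 3′UTR of the length of that of CDKN1A the share is 9.72% of 2501. These letters describe the sequence, and miRNA levels were not analysed here. The CArG box, searched from 250 bases before to 50 bases after transcription starts, was found in 0 of 11 RefSeq windows of 7 members and in 1.29% of 35116 windows of all genes. The box reads the same on both strands. CCND1, CCND2 and CCNE2 had no window and were not searched. At so low a share of all windows, 0 of 11 does not set the members apart.

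In control cells the members spanned a wide range of levels. CCND1 (ENSG00000110092, chr11:69641156-69654474, plus strand) was highest at 209 FPKM ± 13.8 (SD, n = 3), which ranked 132 among the 10328 protein-coding genes with at least 1 FPKM. CDK4 (ENSG00000135446, chr12:57747727-57756013, minus strand) followed at 65.4 FPKM ± 2.34. CDKN2A (ENSG00000147889, chr9:21967752-21995301, minus strand) stood at 39.1 FPKM ± 2.57, CDK6 (ENSG00000105810, chr7:92604921-92836573, minus strand) at 24.3 FPKM ± 0.508 and CDKN1B (ENSG00000111276, chr12:12685498-12722369, plus strand) at 13.6 FPKM ± 0.466. The library values of these 5 genes did not overlap with each other, but their order also depends on the length deposited for each gene. Next came CCNE2 (ENSG00000175305, chr8:94879770-94896678, minus strand) at 8.39 FPKM ± 1.06, CCND3 (ENSG00000112576, chr6:41934934-42050357, minus strand) at 7.9 FPKM ± 0.442 and CCNE1 (ENSG00000105173, chr19:29811991-29824312, plus strand) at 7.3 FPKM ± 1.47. These 3 overlapped and cannot be ordered. CDKN1A (ENSG00000124762, chr6:36676460-36687337, plus strand) was lowest of the detected members at 2.63 FPKM ± 0.142, with 50, 55 and 61 reads. CCND2 (ENSG00000118971, chr12:4269771-4305353, plus strand) was at 0, and a count of 0 allows up to 3 reads, which is 0.046 to 0.0635 FPKM depending on the library. Positions are those of GENCODE on GRCh38.

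**Figure D1:**
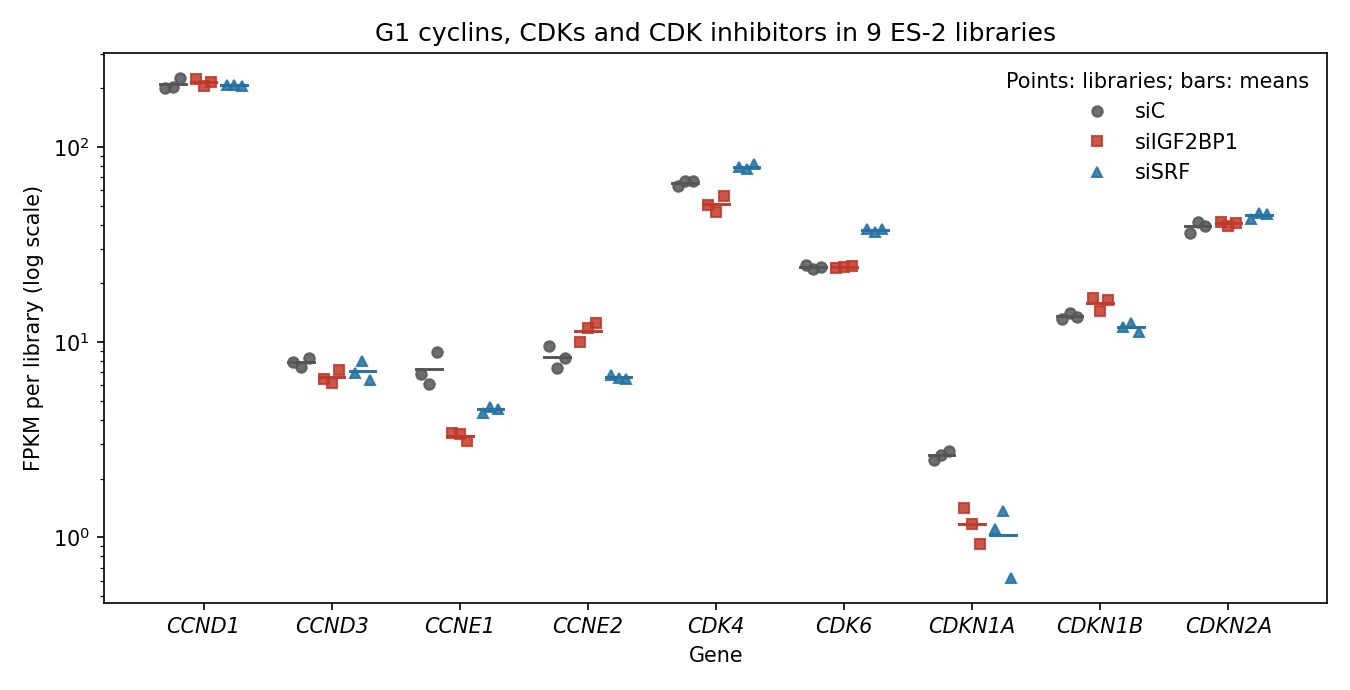
Expression of the 9 detected members in the 9 libraries, as FPKM on a log axis. Points are libraries and bars are means of 3. CCND1 lies near 200 FPKM in each condition, CDK6 is higher in siSRF (36.7 to 38.1 FPKM) than elsewhere, and CCNE1 and CDKN1A are highest in siC.

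Upon IGF2BP1 depletion, CCNE1 and CDKN1A fell to less than 50% of their control level, and no member was called higher. A gene was called where its adjusted p did not exceed 0.01, by limma-trend on log2(FPKM + 0.1), a scale that understates changes of low genes. Of the 9 members tested, 2 were called, against 7.12% of the 22292 genes tested. Both were lower, against 3.57% of all genes called lower and 3.55% higher. These shares include genes of lower level than the members. With a filter at a mean of 1 FPKM, 1931 genes were called, where 14168 genes reached that mean over the 9 libraries. At a threshold of 0.05, 3 members were called (16.1% of all genes), and 4 by limma-voom on recovered reads (17.1%). Among members that were higher in siIGF2BP1, 0 were called by limma-trend, 1 by limma-voom and 2 at an unadjusted p under 0.05. Of all 22292 genes, limma-voom called 1914 higher. The share of all genes at that unadjusted p was not computed, so the 2 cannot be set beside it. The siIGF2BP1 and siC libraries did not overlap for 6 of 9 members, against 35.6% of all genes. In bulk RNA, fewer cells in a given phase of the cycle and less RNA per cell cannot be told apart.

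Upon SRF depletion, CDK6 rose to 154% and CDK4 to 121% of siC, and no member fell at this threshold. Again 2 of 9 members were called, against 12.2% of the 21857 genes tested. Both were higher, against 6.85% of all genes called higher and 5.34% lower. With the filter at a mean of 1 FPKM, 3140 genes were called, again beside 14168 genes that reached that mean over the 9 libraries. At a threshold of 0.05, 4 members were called (23.8% of all genes), as with limma-voom (23.4%). Among members that were lower in siSRF, 0 were called by limma-trend, 2 by limma-voom and 4 at an unadjusted p under 0.05. Of all 21857 genes, limma-voom called 2343 lower. The share of all genes at that unadjusted p was not computed, so the 4 cannot be set beside it. The libraries did not overlap for 7 of 9 members, against 39.9% of all genes. Both comparisons use the same siC libraries, so their values are given side by side. The direct comparison of siIGF2BP1 with siSRF, which needs no siC library, called 5 of 9 members (CCNE1, CDK4 and CDK6 lower, CCNE2 and CDKN1B higher in siIGF2BP1), against 20.0% of 22311 genes (11.2% lower and 8.82% higher). It called 5 at a threshold of 0.05 (32.0% of all genes) and 4 with limma-voom (31.0%), and 6 of 9 did not overlap, against 46.1%. With 3 libraries against 3, the two-sided exact permutation test cannot go below p = 0.1, which it reached for each member whose libraries did not overlap.

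**Figure D2:**
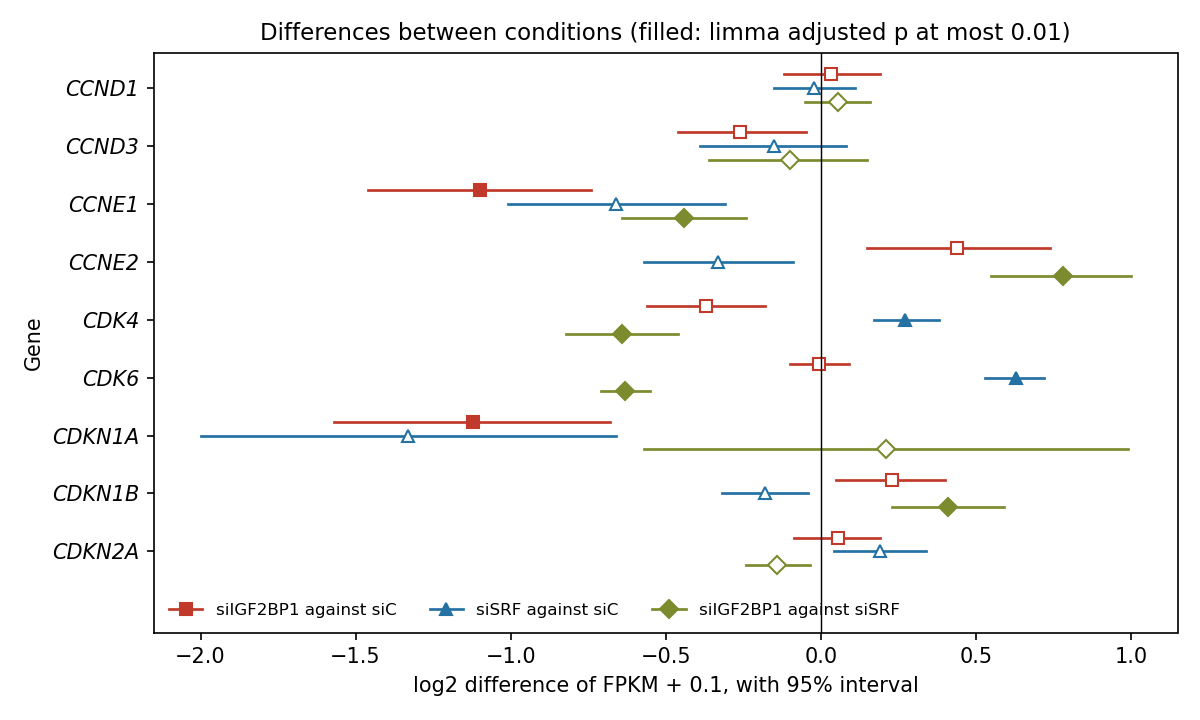
Log2 differences in FPKM + 0.1 with 95% intervals for the 9 detected members in the 3 comparisons. Filled symbols mark a limma adjusted p of at most 0.01. CCND1 lies near 0 in each comparison, while CDK6 lies at 0.63 in siSRF against siC and at -0.0047 in siIGF2BP1 against siC.

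CCND1, the D-type cyclin that ES-2 cells mainly express, stood at 199.8, 202 and 225 FPKM in the siC libraries, 223, 204 and 215 in those of siIGF2BP1 and 207, 207 and 204 in those of siSRF. The 3 conditions overlapped. Its log2 difference to siC was 0.033 in siIGF2BP1 (95% interval -0.12 to 0.19, limma adjusted p = 0.779) and -0.021 in siSRF (95% interval -0.15 to 0.11, limma adjusted p = 0.831). CCND3, the other detected D-type cyclin, stood at 7.91, 7.46 and 8.34 FPKM in the siC libraries, 6.45, 6.14 and 7.22 in those of siIGF2BP1 and 6.96, 7.98 and 6.41 in those of siSRF. The siIGF2BP1 libraries lay below siC, whereas siSRF overlapped with it, and neither difference passed the test (log2 -0.26 with limma adjusted p = 0.102, and log2 -0.15 with limma adjusted p = 0.325). Of the summed FPKM of D-type cyclins, CCND1 made up 96.4% ± 0.141 in siC, 97% ± 0.232 in siIGF2BP1 and 96.7% ± 0.339 in siSRF (SD, n = 3). These shares rest on deposited lengths of 4830 bases for CCND1 and 5802 bases for CCND3.

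CCNE1, the cyclin E gene often amplified in ovarian cancer, stood at 6.83, 6.12 and 8.95 FPKM in the siC libraries, 3.43, 3.39 and 3.1 in those of siIGF2BP1 and 4.34, 4.65 and 4.57 in those of siSRF. Each knockdown library lay below each control library, and the siIGF2BP1 libraries lay below the siSRF libraries. In siIGF2BP1, CCNE1 fell to 45.3% of siC (log2 -1.10, SE 0.149, 95% interval -1.46 to -0.74, limma adjusted p = 0.00522). The call was lost without siC replicate 1 (adjusted p = 0.0206) and without siIGF2BP1 replicate 1, 2 or 3 (0.0212, 0.0234 and 0.028), with log2 values of -1.22 to -0.95 over the 6 fits that each left out 1 library. It was also lost with the replicate number as a block (limma adjusted p = 0.0338). In siSRF, CCNE1 was at 61.9% of siC (log2 -0.66, SE 0.144, 95% interval -1.01 to -0.31), which did not pass (limma adjusted p = 0.0198). The direct difference between siIGF2BP1 and siSRF was -0.44 (SE 0.082, limma adjusted p = 0.00807), a call lost without any 1 of the 6 libraries (adjusted p = 0.0193 to 0.0348), by limma-voom (0.0197) and with all 9 libraries in one fit (0.0318). This call was lost with the replicate number as a block as well (limma adjusted p = 0.0436).

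CCNE2, the other cyclin E gene and likewise an E2F target, stood at 9.51, 7.4 and 8.27 FPKM in the siC libraries, 10.0, 11.8 and 12.5 in those of siIGF2BP1 and 6.82, 6.56 and 6.45 in those of siSRF. The siIGF2BP1 libraries lay above siC and the siSRF libraries below it. Neither passed against siC, the log2 difference being 0.44 (limma adjusted p = 0.0589) in siIGF2BP1 and -0.33 (limma adjusted p = 0.059) in siSRF. By limma-voom the first was 0.45 (adjusted p = 0.00109). With trends along GC content and gene length taken out, the second became -0.58 (limma adjusted p = 0.00393). The direct comparison gave 0.78 (SE 0.0909, 95% interval 0.55 to 1.00, limma adjusted p = 0.00121), CCNE2 in siIGF2BP1 being at 173% of siSRF. With the replicate number as a block this call was lost (limma adjusted p = 0.0114). Described as shares, without a test, CCNE1 made up 46.3% ± 5.16 of the summed FPKM of CCNE1 and CCNE2 in siC, 22.6% ± 2.83 in siIGF2BP1 and 40.6% ± 1.49 in siSRF (SD, n = 3). The sum was 15.7 FPKM ± 1.93 in siC and 14.7 FPKM ± 1.15 in siIGF2BP1, which overlapped, and 11.1 FPKM ± 0.0974 in siSRF. The genes INTS8 and NDUFAF6 overlap CCNE2 on the opposite strand and stood at 10.8, 12.3 and 14.1 FPKM and at 3.96, 3.97 and 5.63 FPKM in siC, siIGF2BP1 and siSRF.

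**Figure D3:**
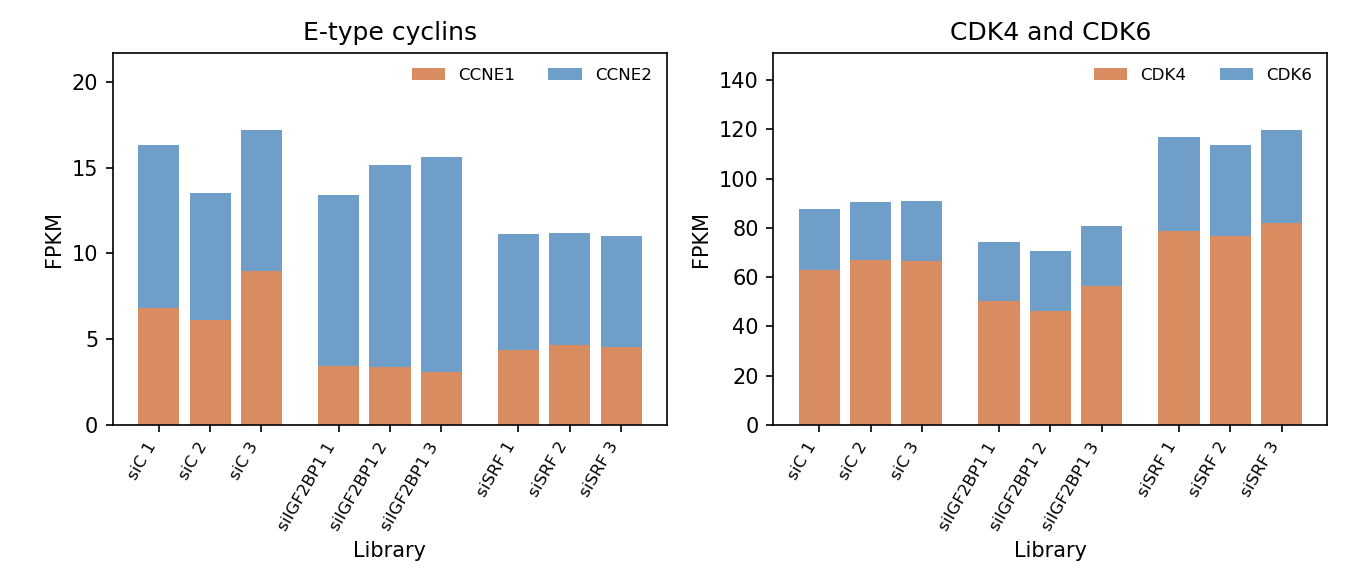
FPKM of CCNE1 and CCNE2 (left) and of CDK4 and CDK6 (right) stacked for each library. In siIGF2BP1 the CCNE1 share of the E-type sum is 19.9 to 25.5%, against 41.8 to 52% in siC, and the sum of CDK4 and CDK6 is highest in the 3 siSRF libraries.

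CDK4, a catalytic partner of D-type cyclins, stood at 62.7, 66.8 and 66.7 FPKM in the siC libraries, 50.1, 46.1 and 56.2 in those of siIGF2BP1 and 78.7, 76.7 and 81.9 in those of siSRF. The 3 conditions did not overlap, siIGF2BP1 being lowest and siSRF highest. CDK4 rose in siSRF by 0.27 on the log2 scale (SE 0.0448, 95% interval 0.17 to 0.38, limma adjusted p = 0.00719). The call was lost without any 1 of the 6 libraries (adjusted p = 0.0177 to 0.0313). It was also lost with all 9 libraries in one fit (0.0197) and with the replicate number as a block (0.0294). In siIGF2BP1 the log2 difference was -0.37 (SE 0.0774, limma adjusted p = 0.0239), which did not pass. This fall did pass with all 9 libraries in one fit (limma adjusted p = 0.00654) and by limma-voom (adjusted p = 9.83e-05). Which CDK4 difference to siC was called thus depended on the fit. Against siSRF, CDK4 was lower in siIGF2BP1 by a log2 difference of -0.64 (SE 0.0749, limma adjusted p = 0.00118), which held without each library in turn (-0.72 to -0.57). TSPAN31 overlaps CDK4 on the opposite strand at 2.7, 3.36 and 0.894 FPKM in siC, siIGF2BP1 and siSRF. MARCH9 also overlaps it on that strand, at 3.5, 2.81 and 3.94 FPKM, lowest in siIGF2BP1 and highest in siSRF as CDK4 was. The part of either gene in the CDK4 counts was not tested.

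CDK6, the other partner of D-type cyclins, stood at 24.8, 23.8 and 24.3 FPKM in the siC libraries, 24, 24.3 and 24.4 in those of siIGF2BP1 and 38.1, 36.7 and 37.9 in those of siSRF. The siIGF2BP1 libraries overlapped with siC, and the siSRF libraries lay above both. CDK6 rose in siSRF by 0.63 on the log2 scale (SE 0.0388, 95% interval 0.53 to 0.72, limma adjusted p = 0.000392), and it was called in each of 17 alternative fits, with values of 0.48 to 0.64. In siIGF2BP1 the log2 difference was -0.0047 (95% interval -0.10 to 0.092, limma adjusted p = 0.964). The direct difference was -0.63 (SE 0.0336, limma adjusted p = 6.81e-05). The summed level of CDK4 and CDK6 was 89.7 FPKM ± 1.9 in siC (SD, n = 3), against 75 FPKM ± 5.18 after IGF2BP1 depletion and 117 FPKM ± 3.21 after SRF depletion, without overlap. CDK6 made up 27.1% ± 1.1, 32.4% ± 2.08 and 32.2% ± 0.52 of it. AC002454.1, which overlaps CDK6 on the opposite strand, stood at 13.1, 5.71 and 20.0 FPKM in siC, siIGF2BP1 and siSRF. Its part in the CDK6 counts was not tested, since the sources used here do not say whether reads were counted by strand.

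CDKN1A, which encodes p21, stood at 2.48, 2.65 and 2.77 FPKM in the siC libraries, 1.41, 1.17 and 0.929 in those of siIGF2BP1 and 1.1, 1.37 and 0.623 in those of siSRF. Each knockdown library lay below each control library, and the knockdowns overlapped. These values rest on 50 to 61 reads in siC, 24 to 33 in siIGF2BP1 and 14 to 38 in siSRF. In siIGF2BP1, CDKN1A fell to 44.4% of siC (log2 -1.12, SE 0.183, 95% interval -1.57 to -0.68, limma adjusted p = 0.00997), at the edge of the threshold. This call was lost without any 1 of the 6 libraries (adjusted p = 0.0152 to 0.0393) and with a pseudocount of 0.01 FPKM, no filter on low values, GC content and gene length taken out, or all 9 libraries in one fit (0.0101, 0.0143, 0.0104 and 0.0205). The replicate number as a block lost it too (limma adjusted p = 0.0516). In siSRF, CDKN1A was at 39.1% of siC (log2 -1.33, SE 0.277, 95% interval -2.00 to -0.66), which did not pass (limma adjusted p = 0.017). The direct difference was 0.21 with a 95% interval of -0.57 to 0.99 (limma adjusted p = 0.665).

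CDKN1B, which encodes p27, stood at 13.2, 14.1 and 13.4 FPKM in the siC libraries, 16.9, 14.4 and 16.4 in those of siIGF2BP1 and 12, 12.5 and 11.3 in those of siSRF. It lay above siC in the siIGF2BP1 libraries and below siC in the siSRF libraries, without passing the test in either (log2 0.23 with limma adjusted p = 0.0924, and log2 -0.18 with limma adjusted p = 0.0717). The direct difference was 0.41 (SE 0.0749, 95% interval 0.23 to 0.59, limma adjusted p = 0.00757). It passed without siIGF2BP1 replicate 2, but not without siIGF2BP1 replicate 1 or 3 or any siSRF library (adjusted p = 0.0192 to 0.0322). Nor did it pass with the replicate number as a block (limma adjusted p = 0.0371). CDKN1A made up 16.3% ± 0.742 of the summed FPKM of CDKN1A and CDKN1B in siC, 6.85% ± 1.29 in siIGF2BP1 and 7.83% ± 2.38 in siSRF (SD, n = 3).

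CDKN2A stood at 36.3, 41.4 and 39.4 FPKM in the siC libraries, 41.4, 39.4 and 40.6 in those of siIGF2BP1 and 42.5, 45.6 and 45.5 in those of siSRF. The siIGF2BP1 libraries overlapped with siC and the siSRF libraries lay above it. Neither difference passed, at log2 0.054 (95% interval -0.087 to 0.19, limma adjusted p = 0.59) and 0.19 (95% interval 0.044 to 0.34, limma adjusted p = 0.0703), the second becoming 0.38 (limma adjusted p = 0.00117) with trends along GC content and gene length taken out. Values per gene do not separate p16INK4A from ARF.

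The other genes of G1 and S phase entry were examined as lists, beside the median log2 difference of all genes tested (0.017 in siIGF2BP1 and 0.0074 in siSRF). Their counts stand beside 3.57% of all genes called lower and 3.55% higher in siIGF2BP1, and 5.34% lower and 6.85% higher in siSRF. Of 24 S-phase genes driven by E2F, 4 fell and 1 rose in siIGF2BP1 (median -0.17), and 12 fell and none rose in siSRF (median -0.25). By limma-voom 11 fell and 3 rose in siIGF2BP1, and 14 fell and 0 rose in siSRF, beside 17.1% and 23.4% of all genes called by limma-voom in either direction. In siSRF no gene of the list was higher at an unadjusted p under 0.05. Among those that fell in siSRF were PCNA, the sliding clamp of DNA polymerases (144 to 97.1 FPKM, log2 -0.57, limma adjusted p = 0.00101), the replication licensing factor CDT1 (20.0 to 12.5 FPKM, log2 -0.67) and the thymidine kinase TK1 (51 to 31.7 FPKM, log2 -0.68). CHAF1A, a subunit of the histone chaperone CAF-1, fell in both (log2 -0.52 and -0.54). Of 10 pocket proteins and E2F partners, 1 fell and 1 rose in siIGF2BP1 (median -0.021), namely E2F4 (log2 -0.54) and the pocket protein gene RBL2 (log2 0.45). In siSRF 3 fell and none rose (median -0.37), among them the E2F partner TFDP1 (40.8 to 24.1 FPKM, log2 -0.75, limma adjusted p = 0.000389) and E2F2 (2.93 to 1.18 FPKM, log2 -1.26).

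Of 11 other kinases and cyclins, 1 fell and none rose in siIGF2BP1 (median -0.15), and 1 fell and 2 rose in siSRF (median 0.091), counts to be set beside the same shares of all genes. MNAT1, a subunit of the CDK-activating kinase, rose in siSRF (7.93 to 14.5 FPKM, log2 0.87, limma adjusted p = 0.000473), as did cyclin C (CCNC, log2 0.50), whereas the phosphatase CDC25B fell (log2 -0.46). CDC37, a kinase co-chaperone that serves CDK4 among others, fell in siIGF2BP1 (81.5 to 56.2 FPKM, log2 -0.54, limma adjusted p = 0.00339). Of 5 other CDK inhibitors 4 were tested, of which none was called in siIGF2BP1 (median 0.15) and 1 fell in siSRF (median -0.46), CDKN2D (4.66 to 2.47 FPKM, log2 -0.89, limma adjusted p = 0.00649). CDKN2B, the neighbour of CDKN2A, stood at 2.08, 3.89 and 1.68 FPKM in siC, siIGF2BP1 and siSRF and passed in neither knockdown against siC (limma adjusted p = 0.0312 and 0.45).

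Of 15 genes that turn over G1 cyclins and inhibitors, 1 rose and none fell in siIGF2BP1 (median -0.006). It was the ubiquitin ligase scaffold CUL4B (log2 0.51, limma adjusted p = 0.00997), at the edge of the threshold. In siSRF 2 rose and none fell (median 0.02), the SKP2 cofactor CKS1B (log2 0.36) and the ligase subunit RBX1 (log2 0.65). Of 24 p53 pathway genes 22 were tested, in a line reported to carry mutated p53. In siIGF2BP1 1 fell and 3 rose (median 0.16), and in siSRF 2 fell and 5 rose (median 0.029), beside the same shares of all genes. The stress sensor gene SESN2 fell in both (log2 -1.34 and -0.77), ZMAT3 rose in both (log2 0.55 and 0.84), and GADD45A rose in siSRF (14.2 to 30.1 FPKM, log2 1.08, limma adjusted p = 0.000115). Of 12 genes that pass growth signals to the D-type cyclins, 2 fell and 1 rose in siIGF2BP1 (median -0.076), and none fell and 5 rose in siSRF (median 0.27). The transcription factor gene ETS2 fell in siIGF2BP1 (7.08 to 2.59 FPKM, log2 -1.45) and rose in siSRF (to 13 FPKM, log2 0.86), and JUN and MYC rose in siSRF (log2 0.83 and 0.38), whereas STAT3 rose in siIGF2BP1 (log2 0.63). Where none was called in a direction in these 7 lists, limma-voom called 0 to 4 genes, and 0 to 5 had an unadjusted p under 0.05. The share of all genes at that unadjusted p was not computed. Nothing particular to a list was tested.

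**Figure D4:**
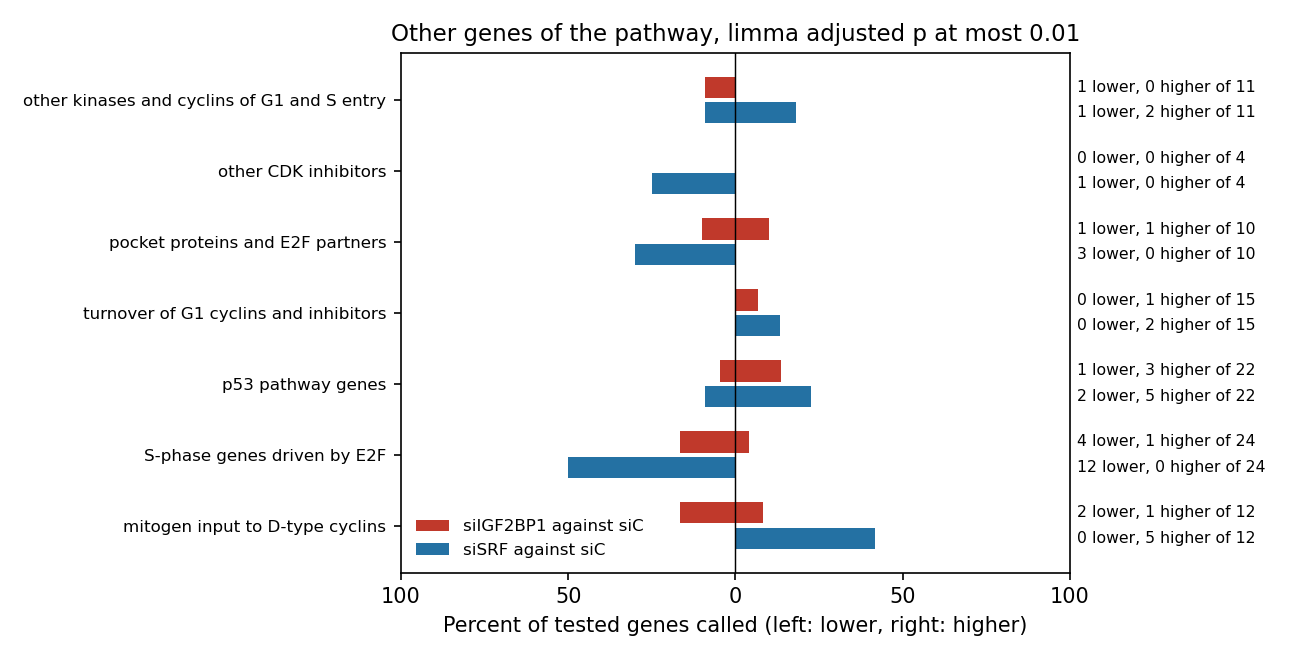
Share of tested genes called lower (left of 0) or higher (right of 0) in 7 lists of other cell cycle genes, in percent, with the counts beside each bar. S-phase genes driven by E2F hold 12 lower of 24 in siSRF, and genes of mitogen input hold 5 higher of 12.

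The 2 protein-coding genes whose levels followed each called member most closely over the 9 libraries were also listed, among 10380 genes and as a description only, since the points share their conditions. For CDK6 these were ELL2 (Pearson r 0.9961) and IFRD1 (0.9954), which stood at 30.5, 31.1 and 88.8 FPKM and at 6.32, 5.98 and 23.5 FPKM in siC, siIGF2BP1 and siSRF. For CDK4 they were RUVBL2 (0.9923) and GADD45GIP1 (0.9877), both lowest in siIGF2BP1 and highest in siSRF. For CCNE1 they were NCR3LG1 (0.9949) and PRRX1 (0.9917), and for CDKN1A REEP4 (0.9814) and CASKIN2 (0.9752).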

How the data were processed

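Total RNA of ES-2 cells (3 libraries each of siC, siIGF2BP1 and siSRF) had been sequenced from a directional kit on an Illumina platform. The authors clipped reads with cutadapt 1.14, aligned them to GRCh38 with HISAT2 2.1.0, handled alignments with SAMtools 1.5, counted them on Ensembl genes with featureCounts 1.5.3 and used edgeR 3.18.1 with TMM normalization. Whether counting used strand is not given in the sources used here. The deposited tables hold an FPKM per gene and library, the length of each gene, and a log2 fold change, p-value and FDR of the authors' own comparisons, which were not used. Both tables gave the siC libraries the same values, and the 9 scaling factors multiplied to 1, so all libraries shared a scale. Of the deposited FPKM values above 0, 100% gave whole reads (tolerance 0.001 reads), and per library 6421764 to 9416175 reads lay on genes.

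A gene was tested where its mean over the 6 libraries of a comparison reached 0.1 FPKM, with limma 3.58.1 (lmFit, then eBayes with its trend option, two-sided) in R 4.3.3 on log2(FPKM + 0.1). Benjamini-Hochberg adjustment ran over all genes tested, with calls at 0.01. Exact permutation tests used scipy 1.17.1. The fits were tested on simulated data. The alternatives were other pseudocounts (1 and 0.01 FPKM), filters (none, and 1 FPKM) and thresholds (0.05), median-ratio rescaling, limma-voom on the recovered reads, robust eBayes, all 9 libraries in one fit, a replicate block, adjustment over protein-coding genes, removal of trends along GC content and gene length, and leaving out each library. The labels do not say whether libraries came from separate cultures, so p-values measure only the spread between these libraries. The floor of 3 reads covers counting error only.

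All 10 members are named with each library's value. From each list, up to 4 genes with the smallest adjusted p in either comparison with siC are named, and for each member called against siC the 2 genes of highest Pearson correlation. The members and lists were chosen with earlier results of these data known. Positions and 3′UTRs are from GENCODE v44, a later annotation than that used for counting. Some marker genes are not reported here.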

Additional observations from a re-analysis of the deposited data

Results flagged for a closer look

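For 5 members the effects of the siRNA pools differed, as tested by the direct comparison of siIGF2BP1 with siSRF (limma adjusted p of at most 0.01, siC libraries not used), beside 20.0% of all 22311 genes called. In log2 values of siIGF2BP1 minus siSRF, the difference was -0.44 for CCNE1, at means of 3.31 and 4.52 FPKM. For CCNE2 it was 0.78, at 11.4 and 6.61 FPKM. For CDK4 it was -0.64, at 50.8 and 79.1 FPKM. For CDK6 it was -0.63, at 24.2 and 37.6 FPKM. For CDKN1B it was 0.41, at 15.9 and 11.9 FPKM. In each of the 5 the 3 libraries of one pool did not overlap with those of the other. CCNE2, CDK4 and CDKN1B lay on opposite sides of siC under the pools. Of these differences to siC, only that of CDK4 in siSRF was called by limma-trend within each comparison. With all 9 libraries in one fit, that of CDK4 in siIGF2BP1 was called instead (limma adjusted p = 0.00654). CCNE1 lost its call without any 1 of the 6 libraries, by limma-voom (adjusted p = 0.0197) and with all 9 libraries in one fit (0.0318), and CDKN1B without any 1 library other than siIGF2BP1 replicate 2 (0.0192 to 0.0322). With the replicate number as a block, CCNE1, CCNE2 and CDKN1B lost their calls (limma adjusted p = 0.0436, 0.0114 and 0.0371). No cause of these differences was tested.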

How the results depend on the processing

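CDK6 in siSRF kept its call under each of the 17 alternatives, as did CDK4 and CDK6 in the direct comparison, whereas CDKN1A in siIGF2BP1 kept its call under 6 and CCNE1 under 12. In siIGF2BP1 against siC, 1588 genes and 2 members were called. limma-voom called 3805 genes and 4 members (CDK4 lower and CCNE2 higher in addition). All 9 libraries in one fit called 2475 genes and 2 members (CCNE1 and CDK4 lower). An adjusted p of at most 0.05 gave 3596 genes, and leaving out 1 library 436 to 738 genes and 0 to 1 members. With a pseudocount of 0.01 FPKM, no filter, or GC and length trends removed, 1 member was called. In siSRF against siC, 2665 genes and 2 members were called. limma-voom called 5123 genes and 4 members (CCNE1 and CDKN1A lower in addition), a threshold of 0.05 5205 genes and 4 members, all 9 libraries in one fit 3 members (CCNE1 and CDKN1A lower, CDK6 higher), removal of GC and length trends 4 members, and leaving out 1 library 946 to 1796 genes and 1 member. In the direct comparison, 4460 genes and 5 members were called, against 6912 genes by limma-voom, 7132 at 0.05, and 2885 to 3358 genes and 3 to 4 members without 1 library. With the replicate number as a block, 91, 501 and 2075 genes and 0, 1 and 2 members were called in the 3 comparisons. Same-numbered libraries did not deviate together (mean correlation -0.00383, 0.000819 and -0.0276 over 14168 genes), and 0, 1 and 0 libraries correlated best with that of their own number. The sign turned for differences near 0 that were not called. CDK6 in siIGF2BP1 was 0.01 without siC replicate 1 and 0.0018 without siIGF2BP1 replicate 1, in a range of -0.02 to 0.01 over the 6 fits without 1 library. In siSRF, CCND1 was 0.026 and CCND3 0.012 after removal of GC and length trends, and CCND1 was 0.032 without siC replicate 3 (range -0.053 to 0.032 without 1 library). CDKN1A in siIGF2BP1 against siSRF was -0.083 without siSRF replicate 3 (range -0.083 to 0.43). The cause of these changes was not tested. Depth limits CDKN1A (14 to 61 reads per library) and CCND2 (0 reads) most.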

Other observations

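In the direct comparison of siIGF2BP1 with siSRF, which uses no siC library, the lists of other cell cycle genes are given by their counts, beside 11.2% of all genes called lower in siIGF2BP1, 8.82% called higher and a median log2 difference of 0.017. Of 24 S-phase genes driven by E2F, 2 were lower and 7 higher in siIGF2BP1 (median 0.15), among them PCNA (132 against 97.1 FPKM, log2 0.44, limma adjusted p = 0.00184), CDT1 (log2 0.62) and TK1 (log2 0.57). Of 10 pocket proteins and E2F partners, 2 were lower and 4 higher (median 0.34). Of 4 other CDK inhibitors, 2 were higher, CDKN2B (3.89 against 1.68 FPKM, log2 1.16, limma adjusted p = 0.000938) and CDKN2C (8.66 against 4.59 FPKM, log2 0.91, limma adjusted p = 0.00357).

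Of 11 other kinases and cyclins, 5 were lower and none higher in siIGF2BP1 (median -0.30). limma-voom also called 0 higher, and 1 was higher at an unadjusted p under 0.05, a rule whose share of all genes was not computed. Those lower included MNAT1 (7.13 against 14.5 FPKM, log2 -1.02, limma adjusted p = 0.000108) and CDC37 (56.2 against 84.8 FPKM, log2 -0.59). Of 12 genes of mitogen input, 6 were lower and 2 higher (median -0.45), ETS2 being lower by a log2 difference of -2.31 (2.59 against 13 FPKM, limma adjusted p = 0.000221) and STAT3 higher by 0.43. Of 22 p53 pathway genes, 5 were lower and 3 higher (median 0.031), and of 15 turnover genes 3 were lower and 2 higher (median -0.016).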
